A study of Mus musculus with 8 samples.

Results

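The genes described here encode chromatin modifiers and remodellers: enzymes that add or remove methyl groups on histones, enzymes that remove acetyl groups, scaffolds of acetyltransferase complexes, enzymes that methylate DNA or oxidise the methyl mark, proteins that read these marks, and the ATP-driven remodellers of the SWI/SNF and ISWI families. They were chosen by the gene symbol that the array annotation gives to each transcript cluster (Kdm without Kdm5c, Kdm5d and Kdm6a, Kmt, Hdac, Dnmt, Tet, Setd, Brd, Smarc, Jade and Mllt1). The rule itself uses no measured values, but it was chosen with earlier results of these data known. It gave 72 genes of 19505 with a symbol, each with 1 transcript cluster. They comprise 15 lysine demethylases, 16 lysine methyltransferases, 10 histone deacetylases, 7 genes of DNA methylation, 6 named for bromodomains, 14 of the SWI/SNF and ISWI group and 4 genes of the Jade scaffolds with Mllt1. These groups follow the symbol alone, so not every gene need have the activity or complex that its group is named for.

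RNA from the hippocampus of male mice was hybridised to 8 whole-transcript arrays. Dams had been dosed by mouth on postnatal days 1 to 4 with clothianidin (CLO in the labels), a neonicotinoid insecticide, at 65 mg/kg/day, which the study gives as the dose without observed adverse effect, or with vehicle. The offspring's brains were taken at an age of 3 or 10 weeks, so the groups are vehicle at 3 weeks, clothianidin at 3 weeks, vehicle at 10 weeks and clothianidin at 10 weeks, with 2 arrays in each. The labels give no strain, no dose that reached the pups, and no statement that arrays of a group came from different animals or litters. The p-values rest on the spread between arrays alone, which may be technical.

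Histone marks and DNA methylation set how accessible a gene is to the transcription machinery. Methyltransferases and acetyltransferases write marks, demethylases and deacetylases erase them, and proteins with bromodomains, PHD fingers or YEATS domains bind them. In the brain, DNA methylation by Dnmt3a and its oxidation by Tet enzymes continue after birth while neurons mature, and neurons assemble their own form of the SWI/SNF complex.

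Values are log2 intensities, so a difference of 1 is a doubling of signal. All 72 genes gave a value on every array. For 54 of them all 8 values lay above the median of their array, and Dnmt3b lay below the lower quartile on all 8 arrays. Brd8dc, Dnmt3l and Kdm8 did so on 7 arrays, Hdac10 on 5, Setd4 on 4 and Kdm4d on 2, and a signal above background was not shown for these values. The mean over the 72 genes lay between 8.18 (the first vehicle array at 3 weeks) and 8.46 (the second clothianidin array at 10 weeks).

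The arrays differed in ways that the groups do not explain. The first vehicle array at 3 weeks stood apart on the second principal component, and it held the lowest value of 16 of the 72 genes (22.2%, against 21.3% of all clusters). Ttr, a marker of the choroid plexus, read 18.25 to 19.16 in 3 arrays (the second vehicle and first clothianidin array at 3 weeks, the first clothianidin array at 10 weeks) and 5.24 to 7.37 in the other 5. The mean of the 7 choroid plexus markers ranged from 5.24 to 10.94 over the arrays at 3 weeks and from 4.90 to 10.65 at 10 weeks. The hippocampal neuron markers Prox1, Neurod6 and Wfs1 read 10.91 to 14.82 over the 8 arrays, whose medians were 5.73 to 5.86. Of the markers of striatum and neighbouring tissue, Drd1 read 4.40 to 5.35, Drd2 4.35 to 5.99 and Ppp1r1b 6.35 to 7.52. These are signals of different probes and give no measure of how much of each tissue was present.

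The design sets 4 arrays against 4 for age and for the mean exposure difference. Age is given first, with 4 arrays at 10 weeks against 4 at 3 weeks, averaged over both exposures. Mllt1 rose 3.64-fold, Jade2 3.86-fold and Smarcal1 1.92-fold, and Tet1, Brd8dc, Kdm5a, Dnmt3a, Kmt5c and Setd2 fell. A gene was called when its limma p-value, after Benjamini-Hochberg adjustment across the 22206 clusters, was under 0.05. By this rule 3 of the 72 genes (4.17%) were higher at 10 weeks, where 6.37% of all clusters were called higher. Called lower were 6 of 72 (8.33%), where 4.84% of all clusters were. The median difference was 0.11 over the 72 genes and 0.07 over all clusters. These counts are near the background of the array, so the chromatin genes as a set did not stand out by the number that changed with age. The ages did not overlap for 11 genes that were higher at 10 weeks (15.3%, against 11.8% of all clusters) and 7 that were lower (9.72%, against 7.89%). Any difference in handling between the ages cannot be told apart from age itself.

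To show the promoters of genes that moved in opposite directions, the 250 bases before the transcription start of Mllt1 (a rise) and of Tet1 and Dnmt3a (falls) are printed from RefSeq (GRCm38.p6), 5′ to 3′ on the strand of the gene. Capitals mark the GC box, GGGCGG on either strand. The Mllt1 window lies at chr17:56935389-56935638 on the minus strand, that of Tet1 at chr10:62887325-62887574 on the minus strand, and that of Dnmt3a, the first of 3 listed starts, at chr12:3806730-3806979 on the plus strand.
Mllt1: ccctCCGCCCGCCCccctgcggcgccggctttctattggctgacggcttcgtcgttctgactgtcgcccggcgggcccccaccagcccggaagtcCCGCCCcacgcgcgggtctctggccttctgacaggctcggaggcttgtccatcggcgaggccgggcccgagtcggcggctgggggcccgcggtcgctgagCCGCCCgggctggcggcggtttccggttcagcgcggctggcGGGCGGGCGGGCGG
Tet1: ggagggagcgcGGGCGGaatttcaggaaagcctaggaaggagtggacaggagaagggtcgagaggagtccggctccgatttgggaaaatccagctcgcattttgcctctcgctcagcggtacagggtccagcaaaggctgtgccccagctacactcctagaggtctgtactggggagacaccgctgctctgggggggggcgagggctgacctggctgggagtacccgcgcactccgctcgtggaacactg
Dnmt3a: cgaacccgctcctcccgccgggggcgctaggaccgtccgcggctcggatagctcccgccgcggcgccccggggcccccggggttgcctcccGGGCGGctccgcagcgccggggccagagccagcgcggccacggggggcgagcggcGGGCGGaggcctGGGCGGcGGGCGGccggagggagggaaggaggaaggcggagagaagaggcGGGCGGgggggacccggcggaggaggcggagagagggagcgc
The Mllt1 window holds 37 CpG dinucleotides and 7 GC boxes, overlapping matches included, and the Dnmt3a window 38 and 5. The Tet1 window holds 15 CpG and 1 GC box. A CpG-rich start was thus present in a gene that rose and in one that fell. Promoter entries were matched by symbol for 56 of the 72 genes, 83 entries in all, of which several can belong to 1 gene. Over their full 300 bases (250 before and 50 after the start) the median CpG count was 26, against 7 over all 32851 promoters of the table. GGGCGG on either strand was found in 73.5% of these promoters and in 35.7% of all, and CCAAT on either strand in 32.5% and 37.4%. These are descriptions of the letters in these windows.

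Mllt1 encodes ENL, a YEATS domain protein that binds acylated histones and belongs to the machinery of transcription elongation. At 3 weeks its values were 4.32 and 4.83 (vehicle) and 5.23 and 4.85 (clothianidin), then at 10 weeks 6.51 and 6.51 (vehicle) and 6.55 and 7.12 (clothianidin). All 4 arrays at 10 weeks lay above all 4 at 3 weeks, with a gap of more than 1 log2 unit between the closest of them. The mean went from 4.81 ± 0.37 (SD, n = 4) to 6.67 ± 0.30 (SD, n = 4), a difference of 1.87 ± 0.22 (SE, limma) or 3.64-fold, with an adjusted p of 0.00257. Mllt1 was called in each of the 8 fits that left out 1 array, with adjusted p between 0.00565 and 0.017.

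Jade2 encodes a PHD finger scaffold of the histone acetyltransferase complex built around Kat7. At 3 weeks it read 6.23 and 8.21 with vehicle, 7.65 and 7.86 with clothianidin. At 10 weeks the values were 8.69 and 9.73 with vehicle, 9.17 and 10.16 with clothianidin. The ages did not overlap, but the first vehicle array at 3 weeks lay well below the other 3 of its age, and this gene had the widest range of the 72 over the 8 arrays, 3.93. The mean went from 7.49 ± 0.87 (SD, n = 4) to 9.44 ± 0.64 (SD, n = 4), a difference of 1.95 ± 0.40 (SE, limma) with an adjusted p of 0.0157. Leaving out vehicle array 1 of 3 weeks gave 1.46, which was still called. The call was lost without clothianidin array 1 of 3 weeks, the second vehicle array at 10 weeks or the second clothianidin array at 10 weeks, with a highest adjusted p of 0.0642.

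The relatives of Jade2 were not called. Jade1, of the same scaffold family, read 6.39 to 6.52 at 3 weeks and 6.81 to 7.92 at 10 weeks, without overlap, a difference of 0.71 ± 0.23 (SE) with an adjusted p of 0.0683 in limma. Jade3 read 8.30 to 8.65 at 3 weeks and 8.32 to 8.89 at 10 weeks, which overlap. Of the 3 Jade genes only Jade2 was thus called.

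**Figure D1:**
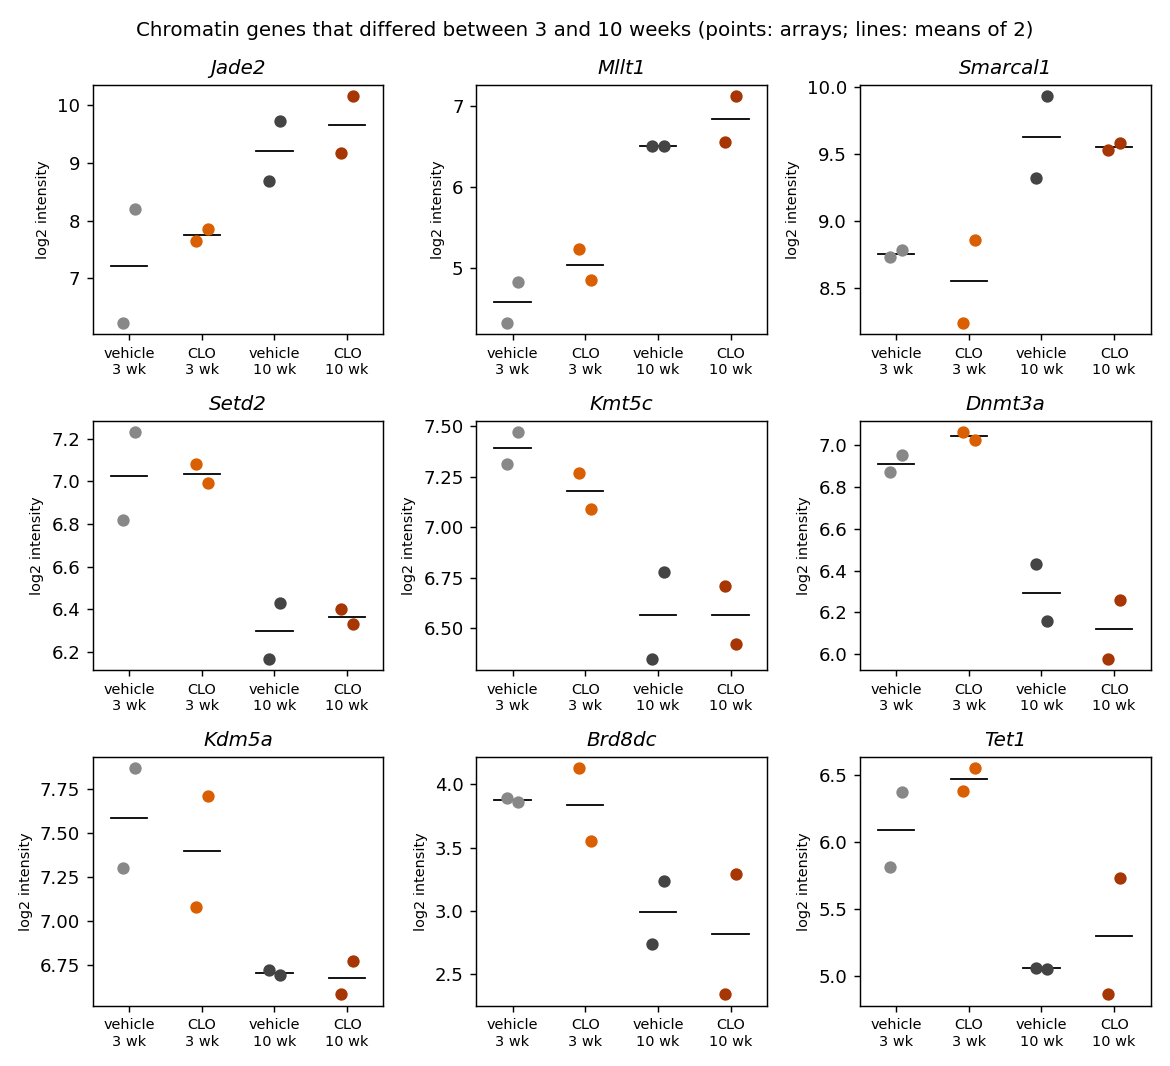
Log2 intensity (vertical axes, which do not start at 0) of the 9 chromatin genes called for age, with 1 point per array, 4 groups of 2 arrays on the horizontal axis (CLO, clothianidin) and lines at group means. In each panel the 4 arrays at 10 weeks lie on one side of the 4 at 3 weeks, and the low point of Jade2 at 6.23 is the first vehicle array at 3 weeks.

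Among the genes of DNA methylation, Tet1 and Dnmt3a fell. Tet1, an enzyme that oxidises methylated cytosine as a step toward removing the mark, read 5.81 and 6.37 with vehicle and 6.38 and 6.55 with clothianidin at 3 weeks. At 10 weeks it read 5.06 and 5.05 with vehicle, 4.86 and 5.73 with clothianidin. The closest arrays of the ages, 5.81 and 5.73, were only 0.08 apart, though they did not overlap. The difference was -1.10 ± 0.24 (SE), with an adjusted p of 0.0174 in limma. It was called in 4 of the 8 fits without 1 array (without either vehicle array at 3 weeks, the first vehicle or the second clothianidin array at 10 weeks) and not in the other 4, where the adjusted p reached 0.065.

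Dnmt3a, which places new methyl groups on DNA, read 6.87, 6.95, 7.06 and 7.02 at 3 weeks (vehicle, then clothianidin) and 6.43, 6.16, 5.98 and 6.26 at 10 weeks. The values at 3 weeks were tightly grouped, with an SD of 0.08 over 4 arrays, and all those at 10 weeks were lower. The difference was -0.77 ± 0.19 (SE), a 1.70-fold lower signal, with an adjusted p of 0.0267 in limma. The call was kept without the second vehicle array at 3 weeks or the first vehicle array at 10 weeks, and lost in the other 6 fits, where the difference stayed between -0.84 and -0.70 and the adjusted p reached 0.0973.

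The other 5 genes of this family were not called. Dnmt1, the maintenance methyltransferase, read 5.85 to 6.87 at 3 weeks and 6.11 to 6.42 at 10 weeks. Dnmt3b, also a de novo enzyme, was below the lower quartile throughout, and Dnmt3l, which lacks catalytic activity, on 7 of 8 arrays. Tet2 differed by 0.62 ± 0.32 (SE) and Tet3 by -0.33 ± 0.27 (SE), and for both the ages overlapped. In this family 0 of 7 genes were called higher and 2 lower, where 6.37% and 4.84% of all clusters were. The families are small, and whether their counts differ from these shares was not tested.

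Of the 16 genes with a Kmt or Setd symbol, grouped as lysine methyltransferases, 2 were called lower and 0 higher, against 4.84% and 6.37% of all clusters. Setd2, which methylates histones along transcribed genes, read 6.82, 7.23, 7.08 and 6.99 at 3 weeks (vehicle, then clothianidin) and 6.17, 6.43, 6.40 and 6.33 at 10 weeks. Its ages did not overlap, and the clothianidin arrays lay within the range of the vehicle arrays at each age. The difference was -0.70 ± 0.19 (SE), which limma gave an adjusted p of 0.041. Of the fits without 1 array, only that without vehicle array 1 of 3 weeks kept the call. The highest adjusted p of those fits was 0.118.

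Kmt5c, a histone methyltransferase of heterochromatin, read 7.31, 7.47, 7.27 and 7.09 at 3 weeks and 6.35, 6.78, 6.71 and 6.42 at 10 weeks, in the same order of groups. The ages did not overlap. The difference was -0.72 ± 0.20 (SE), adjusted p 0.0399 in limma, and was called in 0 of the 8 fits that left out 1 array (adjusted p between 0.0546 and 0.13, differences between -0.83 and -0.61). Its relative Kmt5b went the other way, from 10.91 to 11.29 at 3 weeks to 11.57 to 11.83 at 10 weeks without overlap, but was not called (0.57 ± 0.19, SE, adjusted p 0.0734 in limma). Kmt5a had a low value of 11.09 in vehicle array 1 of 3 weeks and 11.83 to 12.48 in the other 7 arrays.

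Setdb1, which writes a repressive mark on histones, read 9.26 to 10.19 at 3 weeks and 9.01 to 9.33 at 10 weeks, with a difference of -0.55 ± 0.23 (SE) and an adjusted p of 0.13 in limma. Setd1a, of a complex that marks active promoters, overlapped at 5.95 to 6.53 and 5.85 to 6.67. Among the Kmt2 enzymes, which mark promoters and enhancers, Kmt2b differed by -0.22, Kmt2c by 0.15 and Kmt2d by 0.34, each with overlap. Kmt2d ranged from 4.93 to 6.27 within the clothianidin arrays at 3 weeks alone. Differences over the 16 genes ran from -0.72 to 0.57, with a median of 0.10.

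Of the 15 lysine demethylases, 1 was called lower and 0 higher, against 4.84% and 6.37% of all clusters. Kdm5a, which removes the mark of active promoters, read 7.30, 7.87, 7.08 and 7.71 at 3 weeks (vehicle, then clothianidin) and 6.72, 6.69, 6.58 and 6.77 at 10 weeks. The values at 10 weeks were close together and all lower, while those at 3 weeks spread over 0.79. The difference was -0.80 ± 0.22 (SE), with an adjusted p of 0.0404 in limma. It was called without the first vehicle array at 3 weeks and lost in the other 7 such fits, where the adjusted p reached 0.132.

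Its relative Kdm5b overlapped between the ages, at 9.47 to 10.05 and 9.75 to 10.48. Kdm4d gave the largest positive difference of the family, 0.80 ± 0.28 (SE) with an adjusted p of 0.0884 in limma, from 3.74 to 4.32 at 3 weeks and 4.26 to 5.71 at 10 weeks, which overlap. These levels are low, and 2 of them lay below the lower quartile of their array. Kdm1a, a demethylase of neuronal corepressor complexes, read 9.82 to 10.18 at 3 weeks and 9.61 to 9.95 at 10 weeks. Kdm4b read 7.62 to 7.72 at 3 weeks and 7.85 to 8.13 at 10 weeks, without overlap, and was not called (0.31 ± 0.18, SE, adjusted p 0.286 in limma).

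Of the 10 histone deacetylases 0 were called for age in limma, where 6.37% of all clusters were called higher and 4.84% lower. At an unadjusted p under 0.05 the count was 2 higher and 0 lower, against 3903 higher and 2650 lower of all 22206 clusters. Whether these counts differ was not tested. Hdac6, a deacetylase of cytoplasmic proteins such as tubulin, gave the largest difference, 0.71 ± 0.23 (SE) with an adjusted p of 0.0676 in limma. It read 6.85 to 7.48 at 3 weeks, and at 10 weeks 7.24 and 7.95 with vehicle, 8.24 and 8.32 with clothianidin. Hdac11 (8.94 to 9.77 against 9.84 to 10.02) and Hdac7 (4.15 to 4.39 against 4.55 to 4.67) were higher at 10 weeks without overlap and were not called. The nuclear enzymes Hdac1, Hdac2 and Hdac3 differed by 0.01, 0.07 and -0.39, with adjusted p of 0.214 or more in limma. Hdac4, which shuttles between nucleus and cytoplasm in neurons, read 7.59 to 8.19 at 3 weeks and 7.13 to 8.36 at 10 weeks, and Hdac9 read 12.08 to 12.74 and 12.65 to 12.76.

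Among the 6 genes named for bromodomains, which bind acetylated histones, only Brd8dc was called, lower at 10 weeks (4.84% of all clusters). It read 3.89, 3.86, 4.13 and 3.55 at 3 weeks (vehicle, then clothianidin) and 2.74, 3.24, 2.34 and 3.29 at 10 weeks. The ages did not overlap, but all values except the 4.13 were below the lower quartile of their array. The difference was -0.96 ± 0.25 (SE), adjusted p 0.0363 in limma, and it was called in 1 of 8 fits without 1 array (without the second clothianidin array at 10 weeks, highest adjusted p 0.125). The other 5 genes differed by -0.20 to 0.20. Brd1 was high, at 9.10, in vehicle array 1 of 3 weeks and read 8.10 to 8.19 in the other 7.

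Of the 14 genes with a Smarc symbol, grouped as SWI/SNF and ISWI, 1 was called higher and 0 lower, against 6.37% and 4.84% of all clusters. Smarcal1, a helicase that reanneals DNA at stalled replication forks, read 8.73, 8.78, 8.24 and 8.86 at 3 weeks (vehicle, then clothianidin) and 9.32, 9.93, 9.53 and 9.58 at 10 weeks. Every array at 10 weeks was higher than every array at 3 weeks. The difference was 0.94 ± 0.22 (SE), 1.92-fold, with an adjusted p of 0.0232 in limma. Quantile normalization of the arrays gave 0.74 and ended the call (adjusted p 0.0586 in limma). The call was kept without the second vehicle or second clothianidin array at 3 weeks or the first vehicle array at 10 weeks, and lost in the other 5 fits, where the adjusted p reached 0.0897.

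The SWI/SNF subunits among the Smarc genes differed between the ages by varying amounts, and none was called. The ATPases Smarca4 and Smarca2 differed by -0.02 and 0.02, with ranges over the 8 arrays of 10.55 to 10.99 and 12.75 to 13.26. Smarcb1 and Smarcc1, which belong to the core, differed by -0.01 and 0.10. Smarce1 differed by -0.19 (adjusted p 0.532 in limma), with 10.50 to 10.61 at 3 weeks and 10.22 to 10.45 at 10 weeks, which do not overlap. Smarcd3, a subunit of the neuronal form of the complex, read 9.53 to 10.07 at 3 weeks and 10.15 to 10.41 at 10 weeks, a difference of 0.53 ± 0.20 (SE) with an adjusted p of 0.104 in limma. Smarcd1, its paralog, differed by 0.08. Smarcc2 (0.46) and the ISWI ATPase Smarca1 (0.61 ± 0.20, SE, adjusted p 0.0699 in limma) were also higher at 10 weeks without overlap and not called. Smarca5 and the transcribed pseudogene Smarca5-ps are near-identical copies, so their signals of 9.99 to 10.55 and 11.23 to 12.22 may not be separate.

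**Figure D2:**
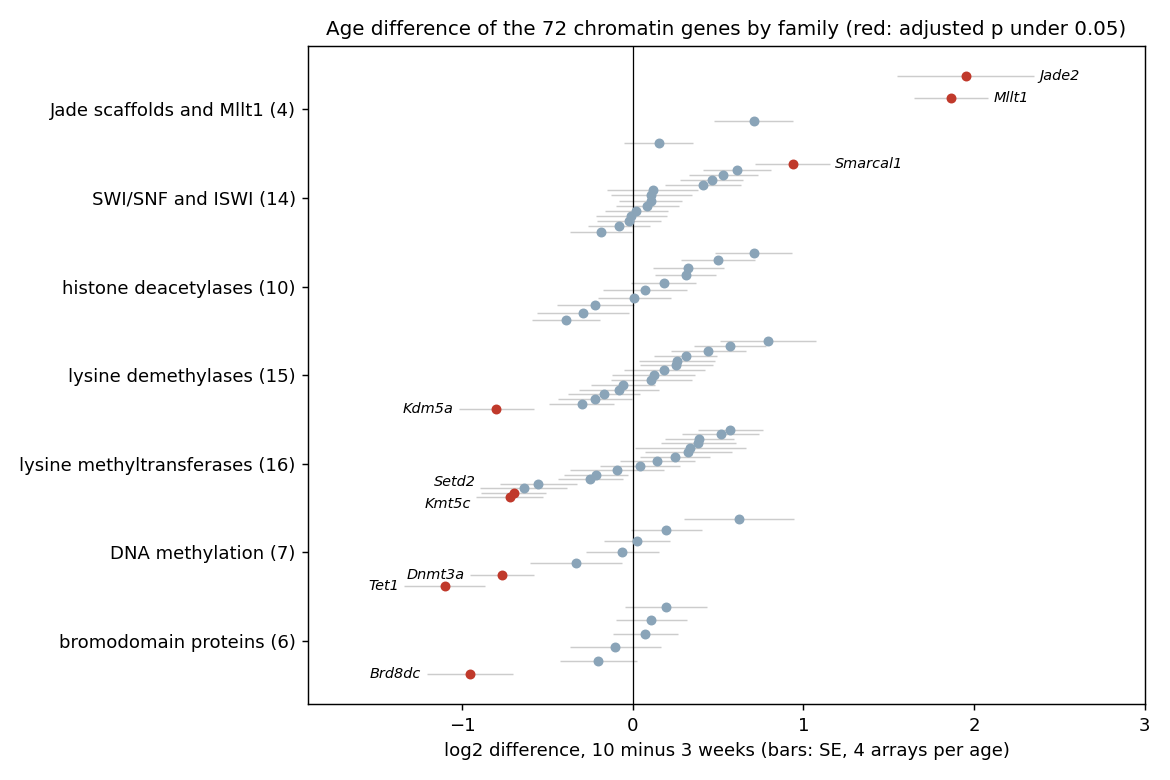
Difference in log2 intensity between 10 and 3 weeks (horizontal axis) for the 72 chromatin genes, grouped by family with the number of genes in brackets. Points are genes, and bars are standard errors of the difference in the limma fit, with 4 arrays per age. The 9 named red points are the called genes, from Tet1 at -1.10 to Jade2 at 1.95.

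Markers of several cell types also differed between the ages. In bulk tissue fewer cells of a type and less RNA per cell cannot be told apart. Of 5 measured oligodendrocyte markers 5 fell, with differences of -2.17 to -1.14. Their mean was 13.44 to 14.57 in the arrays at 3 weeks and 12.30 to 12.56 at 10 weeks. Dcx, a marker of immature neurons, fell by 0.95 (adjusted p 0.0156 in limma). Mki67, a marker of dividing cells, was also called lower (adjusted p 0.00654 in limma), from 4.65 to 5.39 at 3 weeks to 3.13 to 3.74 at 10 weeks, where all 4 values lay below the lower quartile of their array and were not shown to be above background. The other 3 markers of dividing cells and the other 3 of immature neurons were not called. Drd2, listed as a marker of neighbouring tissue, rose by 0.88 from a low level. Of the markers of neurons (5), astrocytes (5), microglia (5), endothelium (3) and choroid plexus (7), 0 were called. The part of these cell types in the age differences of the chromatin genes was not tested. With the Ttr level as a covariate 6 of the 9 calls were kept (Brd8dc, Dnmt3a, Jade2, Mllt1, Smarcal1 and Tet1), whereas without the 3 arrays high in Ttr 0 were kept. That fit has 1 residual degree of freedom, and the 9 differences had the same sign as over all arrays.

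The age difference was then taken within each exposure, 2 arrays against 2. Mllt1 was called in both: 1.94 ± 0.31 (SE) in the vehicle arrays (adjusted p 0.039 in limma) and 1.80 in the clothianidin arrays with an adjusted p of 0.0363. Both tests take the spread from all 8 arrays in the same fit, so these calls are not independent. No other of the 72 genes was called. Higher calls were thus 1 of 72 (1.39%) in the vehicle arrays, where 0.117% of all clusters were called, and 1 of 72 in the clothianidin arrays, where 0.221% were. Lower calls were 0 of 72 in each, where 0.198% and 0.342% of all clusters were called. The call of Mllt1 in vehicle arrays was lost in each of the 8 fits without 1 array, with a highest adjusted p of 0.18. In clothianidin arrays it was kept only without the first or the second vehicle array at 3 weeks, and the adjusted p was at most 0.25.

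The group means in these comparisons share no arrays. Over the 72 genes the age differences in vehicle and in clothianidin arrays correlated at a Pearson r of 0.79 (Spearman rho 0.64), and over all 22206 clusters at 0.63. They had the same sign for 50 genes (69.4%, against 72.3% of all clusters). Jade2 differed by 1.99 and 1.91, Tet1 by -1.03 and -1.17, Smarcal1 by 0.87 and 1.00, and Dnmt3a by -0.61 and -0.92. Genes that were called on the mean of both are bound to lie far from 0, so their position is a description.

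**Figure D3:**
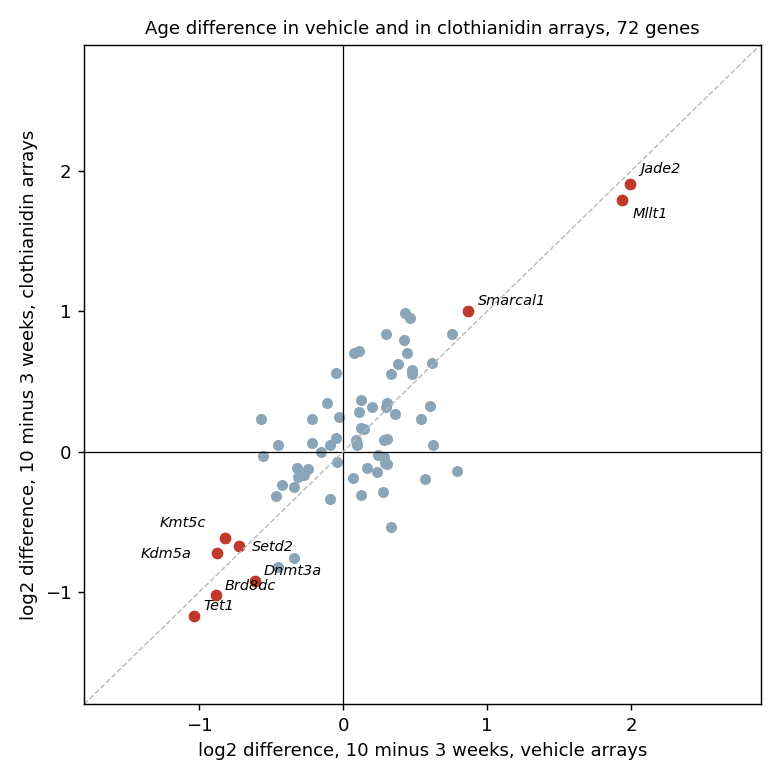
Difference in log2 intensity between 10 and 3 weeks in the vehicle arrays (horizontal axis) and in the clothianidin arrays (vertical axis), with 1 point for each of the 72 chromatin genes and a dashed line of equality. The 9 red points are the genes called over all arrays, and Jade2 (1.99 and 1.91) and Mllt1 (1.94 and 1.80) lie apart at the upper right.

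The study was designed to ask what neonatal clothianidin did to hippocampal gene expression. For the chromatin genes, 0 of 72 were called at 3 weeks, 0 at 10 weeks, 0 for the mean of both ages and 0 for the change of the difference between ages, where 0% of all clusters were called in each. The lowest adjusted p of the 72 genes in limma was 0.846, 0.997, 0.774 and 0.998. An unadjusted p under 0.05 was reached by 2 of 72 genes at 3 weeks (2.78%, against 5.90% of all clusters) and by 0 at 10 weeks (against 3.69%). It was reached by 2 for the mean (2.78%, against 6.17%) and by 0 for the change between ages (against 3.13%). Medians of the 72 differences were 0.02 at 3 weeks and 0.04 at 10 weeks.

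At 3 weeks the clothianidin arrays lay above both vehicle arrays for 14 genes (19.4%, against 17.2% of all clusters) and below for 12 (16.7%, against 17.2%). At 10 weeks they lay above for 13 genes (18.1%, against 15.4%) and below for 3 (4.17%, against 15.3%). At 3 weeks these shares are close to those of all clusters, and at 10 weeks fewer chromatin genes than clusters overall lay lower, a gap that was not tested.

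The genes with an unadjusted p under 0.05 at 3 weeks were Smarcb1 and Kdm1b. Smarcb1, the core SWI/SNF subunit, read 10.21 and 9.85 with vehicle, 10.94 and 10.72 with clothianidin, a difference of 0.80 ± 0.30 (SE) with an adjusted p of 0.846 in limma. At 10 weeks it read 10.48 and 10.13 against 10.80 and 10.28, which overlap. Kdm1b, a histone demethylase related to Kdm1a, read 6.05 and 5.93 with vehicle, 4.88 and 5.49 with clothianidin at 3 weeks, a difference of -0.80 ± 0.30 (SE) with an adjusted p of 0.846 in limma. At 10 weeks its group means were equal (5.51 and 5.33 against 5.20 and 5.64). The change between ages was 0.81 ± 0.42 (SE) for Kdm1b and -0.57 ± 0.42 (SE) for Smarcb1, both with an adjusted p of 0.998 in limma. Kdm1b differed by -0.50 at 3 weeks when clothianidin array 1 of that age was left out.

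For 5 genes the clothianidin and vehicle arrays were apart in the same direction at both ages. They were chosen after their values were seen. Of the 72 chromatin genes 4 lay higher and 1 lower at both ages, and of all 22206 clusters 772 and 755. The share of chromatin genes apart in the same direction was thus close to that of all clusters, though this was not tested. Mllt1 was higher by 0.47 at 3 weeks and 0.33 at 10 weeks, Kmt2e, a protein of the Kmt2 family, by 0.54 and 0.23, Jade1 by 0.09 and 0.57, and Hdac7 by 0.17 and 0.08. Brd2, which binds acetylated histones, was lower by 0.28 and 0.32 on the log2 scale, with 11.88 and 11.99 against 11.71 and 11.61 at 3 weeks and 12.03 and 12.03 against 11.92 and 11.51 at 10 weeks. None was called, and the mean differences had adjusted p of 0.792 or more in limma.

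For Mllt1 the exposure difference was small beside that of age. Its mean exposure difference was 0.40 ± 0.22 (SE) and its age difference 1.87 ± 0.22 (SE). When clothianidin array 2 of 10 weeks was left out, the mean exposure difference was 0.25 for Mllt1 and -0.19 for Brd2. Kmt2e had 11.50 in vehicle array 1 of 3 weeks, the lowest of its 8 values, and without that array its mean difference was 0.20. Jade1 read 7.92 in the second clothianidin array at 10 weeks against 6.95 in the first, and its mean difference was 0.09 without the second and 0.57 without the first.

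Kdm6b, a demethylase of the Polycomb mark, had an unadjusted p of 0.0367 for the mean of both ages, and Smarcb1 one of 0.0305. Kdm6b read 6.45 and 6.88 with vehicle, 7.45 and 6.83 with clothianidin at 3 weeks, then 6.20 and 6.82 against 6.98 and 7.30 at 10 weeks. The groups overlapped at 3 weeks and not at 10 weeks. Its mean difference was 0.55 ± 0.23 (SE), with an adjusted p of 0.774 in limma. Of the genes of DNA methylation, Dnmt1 differed by 0.48 at 3 weeks and 0.23 at 10 weeks, Dnmt3a by 0.13 and -0.18, and Tet1 by 0.38 and 0.24, each with a standard error of at least 0.26.

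**Figure D4:**
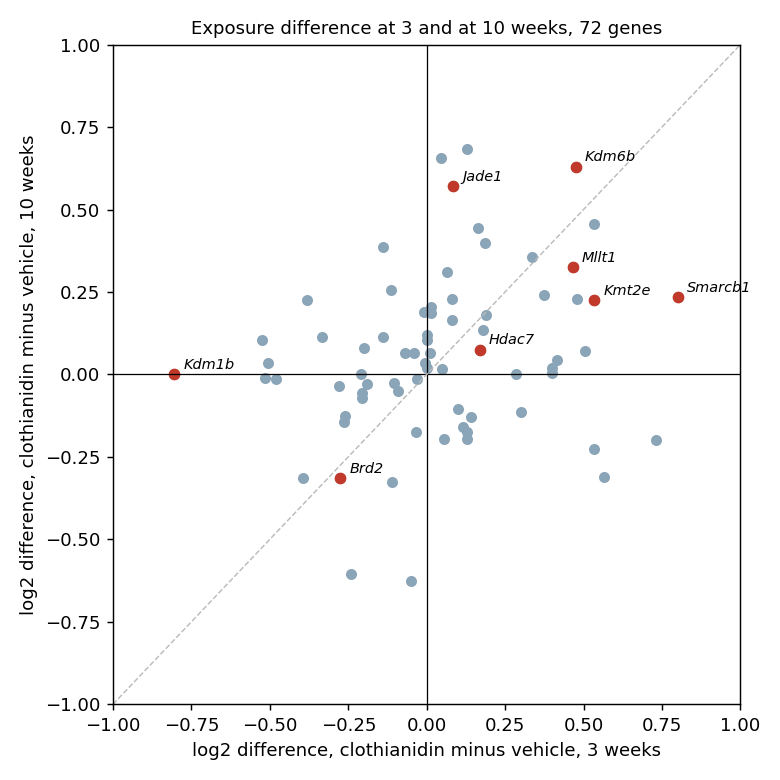
Difference in log2 intensity between clothianidin and vehicle arrays at 3 weeks (horizontal axis) and at 10 weeks (vertical axis), with 1 point for each of the 72 chromatin genes and a dashed line of equality. Red points are the named genes, of which Kdm1b lies at -0.80 and 0 and Smarcb1 at 0.80 and 0.24; a 10-week difference of 0.69, that of Hdac6, is the highest point.

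The exposure differences at the ages share no arrays. Over the 72 genes they correlated at a Pearson r of 0.23 (Spearman rho 0.28), against 0.17 over all clusters, and had the same sign for 44 genes (61.1%, against 56.2%).

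Other chromatin genes from lists of related complexes were counted in the same fit, where 6.37% of all clusters were called higher at 10 weeks and 4.84% lower. The lists are short, and whether their counts differ from these shares was not tested. Of 16 measured subunits of the SWI/SNF complex outside the Smarc genes, 3 were called higher at 10 weeks and 1 lower, with a median difference of 0.51. Arid1b, a DNA-binding subunit, read 6.83 to 7.57 at 3 weeks and 7.87 to 8.91 at 10 weeks (1.03 ± 0.23, SE, adjusted p 0.0205 in limma). Pbrm1, with several bromodomains, rose by 0.82 and Bcl7c by 0.96, while Bcl7b fell by 0.91. Of the 8 fits without 1 array, Bcl7c was called in 6, Arid1b in 3, and Pbrm1 and Bcl7b in 2 each.

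Of 20 measured Polycomb genes, which keep genes repressed, 1 was called higher and 3 lower. Cbx2, a subunit that binds methylated histones, read 5.91, 5.37, 5.62 and 5.55 at 3 weeks and 4.77, 4.51, 4.51 and 4.31 at 10 weeks (-1.09 ± 0.20, SE, adjusted p 0.0109 in limma). Cbx8 fell by 1.07 and Pcgf2 by 0.94, whereas Cbx7, a paralog of Cbx2 and Cbx8, rose by 0.80. Cbx2 was called in each of the 8 fits without 1 array, and Cbx7 in 1 of them, that without vehicle array 1 of 3 weeks. Cbx8 was called in 4 and Pcgf2 in 2.

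Of 13 acetyltransferases 1 was called: Kat6a read 7.74 to 8.36 at 3 weeks and 9.09 to 9.20 at 10 weeks (1.04 ± 0.19, SE, adjusted p 0.0108 in limma), and it was called in all 8 fits without 1 array. The 6 sirtuins are enzymes that use NAD and need not all act on chromatin. Of these, Sirt5 and Sirt6 rose by 0.90 and 0.88 and Sirt2 fell by 0.98. Sirt2, which is abundant in oligodendrocytes, read 12.58 to 12.85 at 10 weeks and 13.10 to 14.14 at 3 weeks, and the oligodendrocyte markers fell too, a link that was not tested. Sirt5 was called in 2, Sirt6 in 1 and Sirt2 in 1 of the 8 fits. Of 18 CHD, NuRD and INO80 genes 3 rose (Chd6 by 0.85, Chd9 by 0.94, Ep400 by 0.82) and 0 fell. Of 18 other methyltransferase, COMPASS and corepressor genes only Sin3b was called, higher by 0.72. Ep400 was called in 3 of the 8 fits. The calls of Chd6 and Chd9 were kept only without the second vehicle array at 3 weeks, that of Sin3b only without the first vehicle array at 10 weeks. Quantile normalization of the arrays ended the calls of Cbx7, Chd6, Ep400, Pbrm1 and Sin3b (adjusted p 0.0757, 0.0599, 0.0798, 0.069 and 0.126 in limma), and centring each array on its median those of Cbx7 and Sin3b (0.062 and 0.0542). Without the 3 arrays high in Ttr 0 of the 16 called genes of these lists kept their call. Medians of the differences in these lists ran from 0.24 to 0.51, against 0.11 in the 72 genes and 0.07 over all clusters. Genes of these lists were not set beside clusters of similar signal level, so whether the gap goes with signal level was not tested. For exposure limma called 0 genes of these lists at 3 weeks, at 10 weeks, for the mean or for the change between ages. An unadjusted p under 0.05 was reached at 3 weeks by 2 SWI/SNF subunits, 3 Polycomb genes and 1 remodeller (5.90% of all clusters), and at 10 weeks by 1 Polycomb gene, 1 acetyltransferase and 1 of the other methyltransferase genes (3.69%). It was reached for the mean by 1 SWI/SNF subunit, 1 Polycomb gene and 1 of the other methyltransferase genes (6.17%), and for the change between ages by 1 Polycomb gene, 1 acetyltransferase and 1 remodeller (3.13%).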

How the data were processed

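The authors deposited 1 table of log2 intensities, 1 value per transcript cluster and array, made with RMA per the submitters' processing notes, with no version given. The values themselves show the log2 scale, while the sources do not state whether the 8 arrays were normalized together. RNA had an integrity number above 7, and 250 ng was labelled per array, per the labels' protocols. Symbols came from the platform annotation (19572 clusters carry 1, 2634 none), and all 72 genes kept their symbol in RefSeq GRCm38.p6. Levels of different clusters are not ranked against each other.

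All 22206 clusters were fitted in limma 3.58.1 (R 4.3.3) with a mean per group, 4 residual degrees of freedom and eBayes at its defaults. The tests were two-sided, with Benjamini-Hochberg adjustment over all clusters. For each of 7 contrasts, genes past an adjusted p of 0.05 were named, or for exposure those at an unadjusted p of 0.05 whose groups were apart. The rule also names 31 fixed genes (28 had a row, the others were not analysed here), the widest range over arrays and the called genes of related lists. Further genes were named after their values were seen. The genes, lists and alternatives were chosen with earlier results of these data known. The number of arrays, 2 per group, limits precision. The fit was also run on simulated data with independent normal noise, which do not hold the array differences described above. No measure of power is taken from that run. Figures were drawn with matplotlib 3.10.9.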

Additional observations from a re-analysis of the deposited data

How the results depend on the processing

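Over all arrays 9 chromatin genes were called for age. The count was 14 at an adjusted p under 0.1, 14 under a looser rule (1.5-fold or more, unadjusted p of 0.05), 0 without the 3 arrays with Ttr above 18, and 6 to 9 under the other settings. Leaving out 1 array gave 1 to 6. In the vehicle arrays the count of 1 became 11 under the looser rule and 0 with the replicate block, with array weights, with dim clusters (below the median level) left out, with the Ttr covariate, without the 3 arrays high in Ttr, with only the 2 groups compared and without any 1 array. In the clothianidin arrays the count of 1 became 18 under the looser rule, 2 with only the 2 groups compared, 0 with the block, without dim clusters, with quantile normalization or without the 3 arrays high in Ttr, and 0 to 1 without 1 array. The looser rule was not counted over all clusters. Its unadjusted p under 0.05 alone was met, of 22206 clusters, by 3903 higher and 2650 lower over all arrays. In the vehicle arrays it was met by 2486 and 1737, and in the clothianidin arrays by 2257 and 1683. The level filter removed Mllt1, Tet1 and Brd8dc themselves. For exposure the counts stayed at 0 except for 2 at 3 weeks under the looser rule. Only the called genes and the exposure differences of Smarcb1, Kdm1b, Kdm6b, Hdac7, Jade1, Kmt2e, Mllt1 and Brd2 were recomputed one by one, and none of these changed sign. Differences near 0 have no settled sign, since centring each array on its median moved that of Mllt1 by age from 1.87 to 1.80. Deviations of same-numbered arrays from their group means correlated at -0.27 to 0.14 between groups. With 2 arrays per group this cannot show whether replicate numbers pair the arrays. With the replicate block 6 of the 9 age calls were kept, while Brd8dc, Kmt5c and Setd2 were not (adjusted p 0.0509, 0.0604 and 0.0589 in limma), nor were Cbx7 and Sin3b of the related lists (0.061 and 0.057). The cause was not tested.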
